A study of Brassica napus with 12 samples.

Results

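The response of young rapeseed seedlings of a submergence-susceptible pool to 24 h under water was described across 52901 genes. They are the genes at 1 RPKM or more in at least 3 of the 6 libraries of that pool, out of 109614 genes in the deposited table. RPKM is a read number scaled to the length of the gene and the size of the library. Rapeseed, *Brassica napus*, is an allotetraploid with an A and a C subgenome, so most of its genes exist as near-identical copies on both. Most gene identifiers name a chromosome, and those of scaffold genes and of transcripts listed as new genes name none. Where reads fit both copies, the split between them, and so the value of either, is uncertain.

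The submerged group held 3 libraries of susceptible seedlings fully covered with distilled water for 24 h, and the control group 3 libraries of susceptible seedlings kept under normal conditions. Both groups were grown for 1 week on moist paper under 16 h of light at 25 °C and 8 h of dark at 22 °C, until the cotyledons were flat. Every library mixed equal amounts of seedlings of 5 susceptible germplasm, so the response of any single germplasm was not measured. The labels call the replicates biological but do not say whether treated and control libraries of the same number share a box or a day. The other 6 libraries of the study, from a resistant pool of 5 germplasm treated in the same way, entered the fit for its estimate of the spread and are used below only where the responses are set side by side.

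As background, water slows the diffusion of oxygen and carbon dioxide and dims light, so both respiration and photosynthesis slow in submerged shoots. Plants are known to meet this with fermentation, faster use of sugars, ethylene signalling and a cutback of costly synthesis, under the control of group VII ethylene response factors. The identifiers of the deposited table could not be paired with gene names (0 matches in 123214 rows of the RefSeq table used here), so no gene below is given a name or a role, and no marker of a tissue could be checked. Genes are therefore described by level, by the class in the identifier and one by one.

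The 6 libraries were of like depth. The spacing of their lowest values put them at 0.875, 0.977 and 1 of the deepest library when submerged, and at 0.862, 0.911 and 0.932 in controls. Absolute depth is unknown, so no counting error is given. Across the 52901 genes, correlations of log2(RPKM + 1) were 0.949 to 0.970 among submerged libraries, 0.943 to 0.962 among controls and 0.839 to 0.881 between the groups, which describes the libraries only since genes are not replicates. The first and the second submerged library stood apart, in opposite directions, in blocks of chromosomes A05, A06 and A09 and in scaffold genes, as described below. Over the blocks together and in scaffold genes the first and the second control deviated the same ways, by less.

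Under water more genes fell than rose. By limma's moderated test on log2(RPKM + 1), 6701 genes rose and 15362 fell at a Benjamini-Hochberg adjusted p under 0.05. That is 12.67% and 29.0% of the members, against 12% and 28.6% of the 57391 genes tested in the whole table. In whole seedlings, fewer cells of a type and less RNA per cell cannot be told apart. At least 2-fold rises numbered 3301 and at least 2-fold falls 3578, against 5.83% and 6.35% of all tested genes called that way. Without the first submerged library 6081 genes rose and 12074 fell, and without the second 6032 rose and 13307 fell.

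Among the largest changes rises outnumbered falls. Genes called at least 4-fold higher numbered 797, against 476 at least 4-fold lower. At 8-fold there were 169 rises and 72 falls, at 16-fold 31 and 17, and at 32-fold 8 rises and 0 falls. These folds are on the log2(RPKM + 1) scale, which understates changes of weak genes. With a pseudocount of 0.1 in place of 1, 3987 genes were called at least 2-fold higher and 6483 at least 2-fold lower. On that scale the 4-fold changes were even (1323 and 1311), and rises again led at 8-fold (422 and 326) and 32-fold (38 and 15).

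The median change of all members was -0.18 log2, and the balance of rises and falls depended on how the libraries were scaled. Relative to that median, 4174 called genes were at least 2-fold higher and 2313 at least 2-fold lower. Rises made up 30.4% of the calls on RPKM as deposited, 45.45% after quantile normalization (8123 higher, 9749 lower) and 54.8% after median ratio scaling (10484 higher, 8632 lower). No gene called in the deposited scale was called in the opposite direction under either of them.

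Most genes passed the expression minimum in both groups. It was reached in all 6 libraries by 43631 genes, of which 5516 rose and 11594 fell. A further 570 genes reached it only in the 3 submerged libraries and 2021 only in the 3 control libraries. These had to differ between the groups, so their 533 rises and 1900 falls support nothing about the balance of calls. Without them 6168 genes rose and 13462 fell. Just inside the minimum, BnaC03G0557400ZS had 1.000019 RPKM in the library that decided its entry, and just outside it BnaA09G0432600ZS had 0.999743 RPKM.

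All 3 submerged libraries lay above all 3 controls for 7704 members, and below them for 18171. Over all tested genes such separation held for 14.0% and 34.3%, and over the members for 14.56% and 34.35%. Of the separated genes, 6451 were also called higher and 14769 called lower.

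Rises were most frequent among abundant transcripts under every scaling. Of the 1114 genes that averaged 100 RPKM or more over the 6 libraries, 30.5% rose and 22.2% fell. Of the 9560 genes that averaged under 2 RPKM, 7.33% rose and 34.5% fell, but 2249 of these reached 1 RPKM in 1 group only. Between them 8.92% rose and 32.5% fell at 2 to 5 RPKM, 13.4% and 27.9% at 5 to 20 RPKM, and 21.7% and 19.8% at 20 to 100 RPKM, the bin with the fewest falls. Without the genes that reached 1 RPKM in 1 group only, 4.45% rose and 21.65% fell under 2 RPKM, and 8.32% and 31.94% at 2 to 5 RPKM. At least 2-fold falls under 2 RPKM numbered 547 with these genes and 63 without them. Leaving them out takes away genes that had to differ, and keeping them adds such genes. Neither count therefore settles in which of these bins falls were more frequent.

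**Figure D1:**
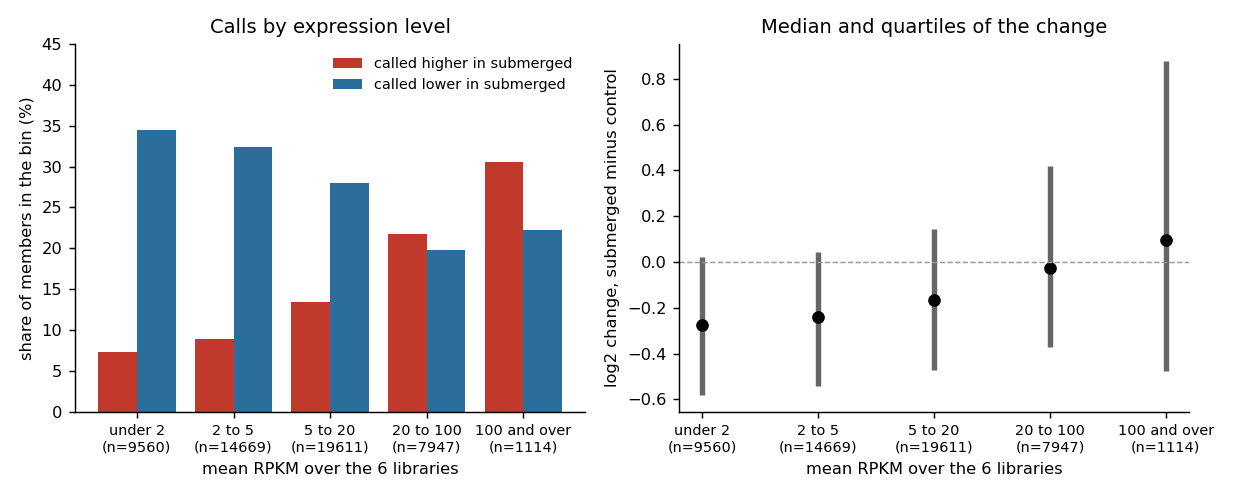
Left, the share of members called higher (red) or lower (blue) in submerged seedlings, in bins of the mean RPKM over the 6 libraries. Right, the median (point) and quartiles (bar) of the log2 change in the same bins. The share of rises runs from 7.33% in the weakest to 30.5% in the most abundant bin, where the bar is also widest.

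The median log2 change was -0.28, -0.24, -0.17, -0.03 and 0.098 from the weakest bin to the most abundant one. Without the genes that reached 1 RPKM in 1 group only, it was -0.197 under 2 RPKM and -0.239 at 2 to 5 RPKM. On log2(RPKM + 1) the changes were most spread among abundant genes. Their quartiles were -0.48 and 0.88 at 100 RPKM or more, against -0.58 and 0.02 under 2 RPKM. On the same scale the median SD within groups was 0.306 at 100 RPKM or more and 0.213 under 2 RPKM. The added 1 shrinks differences of weak genes, so neither comparison tells whether abundant genes varied more on a plain log2 scale. By share of calls, median ratio scaling gave 10.73% rising and 23.04% falling under 2 RPKM, and 38.87% and 14.45% at 100 RPKM or more. Quantile normalization gave 12.85% and 16.19% under 2 RPKM, and 27.38% and 26.48% at 100 RPKM or more. Median ratio scaling also kept the order of the bins (medians of -0.12, -0.03, 0.083, 0.24 and 0.37). Quantile normalization, which gives every library the same distribution of values, brought all medians between -0.07 and -0.03. Without the second submerged library the median at 20 to 100 RPKM was 0.046.

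Counted per library, fewer members were above the lower limits in submerged seedlings and more were above the highest one. Members at 1 RPKM or more numbered 48362, 48245 and 48735 in submerged libraries, against 51281, 51046 and 50847 in controls. At 10 RPKM or more there were 16626, 15918 and 16977 in submerged libraries and 17496, 17678 and 17546 in controls. At 100 RPKM or more there were 1171, 1261 and 1182 in submerged libraries and 1053, 1115 and 1023 in controls. The groups did not overlap in any of these counts, and each gave a 2-sided exact permutation p of 0.1, the smallest that 3 against 3 libraries allow (0.2 after Benjamini-Hochberg adjustment over 12 measures). The median RPKM of the members was 5.06, 4.92 and 5.28 in submerged libraries and 5.79, 5.81 and 5.99 in controls, with the same p. With median ratio scaling the count at 10 RPKM turned round, with 1540.33 more genes on average in submerged libraries, and so did the median RPKM (5.61, 5.52 and 5.51 submerged, 5.31, 5.30 and 5.30 in controls). The counts at 1 RPKM and 100 RPKM kept their direction.

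Genes entered and left the upper range in large numbers. At 100 RPKM or more, 232 genes were found in all 3 submerged and no control library, and 136 in all 3 control and no submerged library, while 523 were there in all 6. At 10 RPKM or more the numbers were 1033 in submerged libraries alone, 1282 in controls alone and 11602 in all 6. Of the 100 genes with the highest mean in submerged seedlings, 54 were also among the 100 highest in controls. Each list was ranked by the mean of its own group, which favours calls in that direction. Of the submerged 100, 46 had risen and 12 had fallen, and of the control 100, 10 had risen and 49 had fallen, against 30.5% rising and 22.2% falling among all members averaging 100 RPKM or more.

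The called genes took a large part of the summed RPKM. The 3301 genes called at least 2-fold higher held 19.6%, 20.2% and 20.03% of all RPKM in submerged libraries, against 5.96%, 6.996% and 5.29% in controls. The 3578 called at least 2-fold lower held 3.90%, 4.28% and 3.88% in submerged libraries, against 14.0%, 12.5% and 13.8% in controls. These genes were chosen by the same contrast, so the shares only describe them. Concentration in the very top genes did not separate the groups. The 100 most abundant genes of each library held 8.99%, 9.90% and 8.18% in submerged libraries and 9.54%, 8.80% and 10.2% in controls (2-sided exact permutation p = 0.5, n = 3 each).

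The 12 largest rises among genes averaging at least 5 RPKM were all in genes at or below 2.06 RPKM in every control and at or above 31.6 RPKM in every submerged library, with 6 of them on A and 6 on C chromosomes. Of these 12 genes, 6 reached 1 RPKM only in the submerged libraries. BnaC01G0499200ZS had 219.9, 217 and 204 RPKM in submerged seedlings, against 1.14, 1.58 and 1.21 RPKM in controls. Its replicates were close in both groups, and its change of 6.54 ± 0.16 log2 (SE; limma adjusted p = 5.41e-09) was the largest of the list. BnaA03G0373800ZS had 63.8, 186 and 47.8 RPKM in submerged and 0.223, 0.466 and 0.438 RPKM in control libraries (5.94 ± 0.40 log2, SE). It is a member only through the submerged libraries, so no p is given. The second submerged library was far above the other two for this gene, and the lowest of the 3 was still far above every control.

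BnaC04G0512400ZS stood at 91.5, 83.5 and 114 RPKM in submerged seedlings, against 1.21, 1.79 and 0.878 RPKM in controls (5.41 ± 0.17 log2, SE; limma adjusted p = 2.99e-08). Relative to their level, its controls spread more widely than its submerged libraries. A pair on A and C chromosomes of the same number, BnaA03G0101500ZS and BnaC03G0115400ZS, rose to like levels. The A03 gene had 53.3, 66.0 and 80.0 RPKM in submerged libraries and 0.60, 1.19 and 0.199 RPKM in controls. The C03 gene had 61.7, 90.8 and 79.2 RPKM in submerged libraries and 2.06, 1.24 and 0.363 RPKM in controls. Whether they are copies of one gene cannot be read from the identifiers.

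The other 7 rises of the list were BnaA05G0126100ZS, BnaA04G0205800ZS, BnaC03G0301100ZS, BnaA10G0195900ZS, BnaC09G0491800ZS, BnaC08G0361800ZS and BnaA10G0206100ZS. Their values lay between 31.6 and 103 RPKM in submerged libraries and between 0.0897 and 1.82 RPKM in controls. Their log2 changes were 4.75 to 5.54. Only BnaC03G0301100ZS and BnaA10G0206100ZS reached 1 RPKM in a control library.

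**Figure D2:**
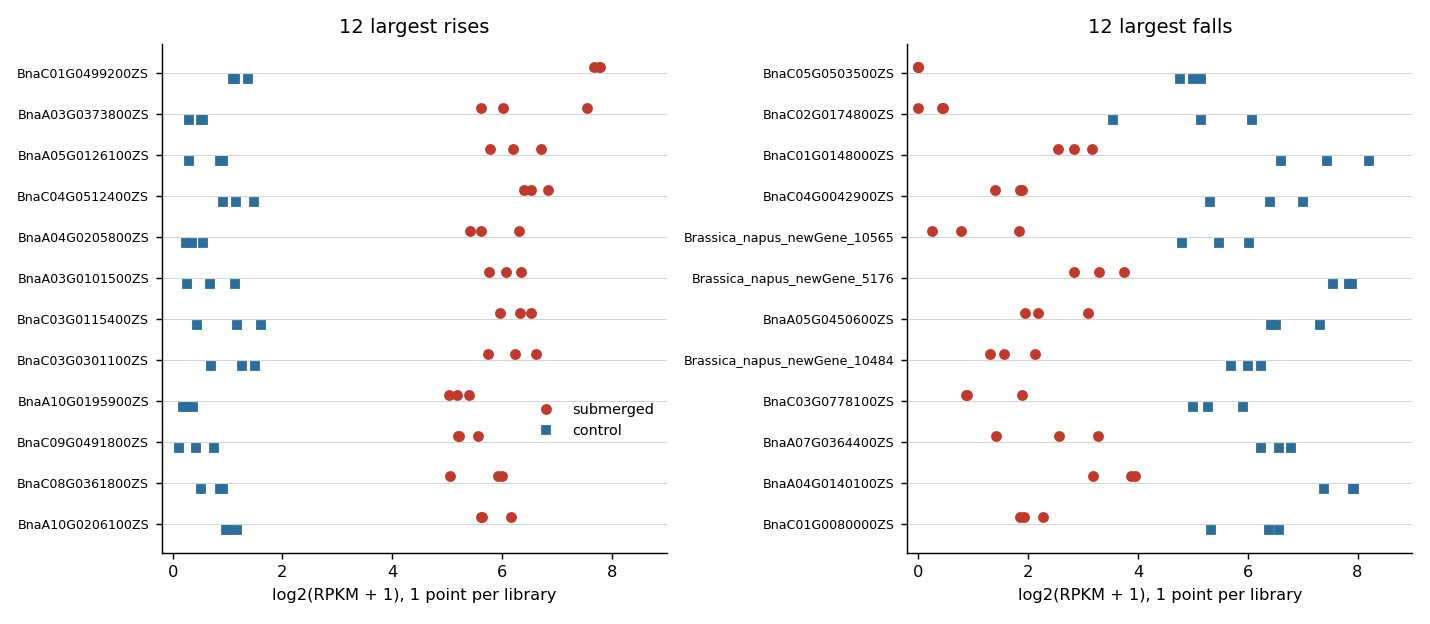
Levels of the 12 largest rises (left) and 12 largest falls (right) as log2(RPKM + 1), with 1 point for each submerged (red circles) and control (blue squares) library. The groups do not overlap for any of the 24 genes, which the choice of genes required.

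The list of the 12 largest falls held 6 C genes, 3 A genes and 3 new genes, transcripts with no chromosome in the identifier. BnaC05G0503500ZS was listed at 0 in all 3 submerged libraries, against 34.3, 31.3 and 26.1 RPKM in controls, and it was not called with the replicate number as a block. In the resistant pool it was at 0, 0 and 33.3 RPKM submerged and at 24, 34.6 and 0 RPKM in controls. There it was thus both at 0 and at such levels within each group. A value listed at 0 in a table without counts can be a failed estimate, so no fold is given for it. BnaC02G0174800ZS was at 0, 0.355 and 0.360 RPKM in submerged libraries and at 34.4, 10.7 and 66.6 RPKM in controls. Both are members only through the controls, so no p is given. Its controls differed widely, but the lowest of them was far above every submerged library.

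BnaC01G0148000ZS had 4.84, 7.98 and 6.09 RPKM submerged and 173, 96.0 and 293 RPKM in controls (fell by 4.57 ± 0.36 log2, SE; limma adjusted p = 6.96e-06). Brassica_napus_newGene_5176 had 6.13, 12.3 and 8.81 RPKM submerged and 188, 237 and 228 RPKM in controls (fell by 4.48 ± 0.24 log2, SE; limma adjusted p = 8.20e-07). The controls of the C01 gene spread over about 3-fold, and those of the new gene were close.

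BnaA05G0450600ZS had 3.51, 2.83 and 7.47 RPKM submerged, against 158, 90.0 and 84.7 RPKM in controls, with the widest standard error of the list after BnaC05G0503500ZS (fell by 4.35 ± 0.85 log2, SE; limma adjusted p = 0.00205). The other 7 falls were BnaC04G0042900ZS, Brassica_napus_newGene_10565, Brassica_napus_newGene_10484, BnaC03G0778100ZS, BnaA07G0364400ZS, BnaA04G0140100ZS and BnaC01G0080000ZS. Their values lay between 0.183 and 14.4 RPKM in submerged libraries and between 27.0 and 243 RPKM in controls, and their log2 changes between -4.52 and -4.08 (limma adjusted p of 1.78e-06 to 0.000109).

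Changes of 8-fold or more were described by level and class. On log2(RPKM + 1) such a change is out of reach for genes weak in both groups, so the levels partly follow from the choice. The 169 such rises, 40 of them at 1 RPKM or more in the submerged group only, had a median level of 41.6 RPKM in submerged seedlings, against 2.43 RPKM in controls, and 75 lay on A chromosomes, 89 on C chromosomes and 5 among new genes. The 72 such falls, 11 of them at 1 RPKM or more in controls only, had a median of 2.17 RPKM in submerged seedlings and 32.8 RPKM in controls, with 30 on A chromosomes, 29 on C chromosomes and 13 among new genes. Of the 52901 members, 23739 lay on A chromosomes, 24894 on C chromosomes and 2908 among new genes. No scaffold gene was called with an 8-fold change in either direction.

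Of all 52901 members, 6451 rose and 14769 fell with no overlap between the groups. Among the 1114 members averaging 100 RPKM or more, 332 rose and 230 fell in this way. The largest rise after BnaC01G0499200ZS was that of BnaC04G0163500ZS, at 227, 332 and 242 RPKM in submerged and 9.49, 11.5 and 7.48 RPKM in control libraries (4.67 ± 0.30 log2, SE; limma adjusted p = 1.94e-06). BnaA01G0298400ZS had 336, 302 and 365 RPKM submerged and 12.6, 12.7 and 11.8 RPKM in controls. Both genes were at 227 RPKM or more in every submerged library and at 12.7 RPKM or less in every control. BnaC03G0114800ZS had 237, 211 and 191 RPKM submerged and 15.1, 17.3 and 2.84 RPKM in controls, with the third control well below the other two controls. BnaC03G0457300ZS had 251, 253 and 199 RPKM submerged and 10.5, 10.3 and 12.6 RPKM in controls.

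The largest falls of abundant transcripts included Brassica_napus_newGene_5176, given above, and BnaA04G0140100ZS, which had 14.4, 13.6 and 8.04 RPKM submerged and 243, 166 and 242 RPKM in controls. Brassica_napus_newGene_4855 had 37.5, 29.0 and 26.1 RPKM submerged and 512.5, 385 and 643 RPKM in controls (fell by 4.00 ± 0.28 log2, SE; limma adjusted p = 3.34e-06). BnaA01G0120500ZS had 40.5, 52.4 and 50.7 RPKM submerged and 634, 420.2 and 1058 RPKM in controls. BnaC08G0450300ZS had 35.3, 32.9 and 23.9 RPKM submerged and 361, 299 and 391 RPKM in controls. The controls of BnaA01G0120500ZS spread widely, while its submerged libraries were close together.

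Of the 5 most abundant members, 2 rose by under 1 log2 and 3 were not called on the deposited scale. BnaC04G0532900ZS had 2586, 3908 and 2057 RPKM submerged and 3004, 2543 and 3923 RPKM in controls, so the groups overlapped (limma adjusted p = 0.67). It was called lower only after quantile normalization (limma adjusted p = 0.012), and its adjusted p ran up to 0.992 over all settings. BnaC04G0380700ZS had 2918, 3954 and 2328 RPKM submerged and 1720, 1553 and 1971 RPKM in controls, which did not overlap (0.78 ± 0.21 log2, SE; limma adjusted p = 0.0112). It was not called with the replicate block or with the 6 susceptible libraries alone (limma adjusted p = 0.06 and 0.155), and its adjusted p ran from 0.000177 to 0.379 over all settings.

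BnaA04G0101200ZS had 2614, 3761 and 2062 RPKM submerged and 1607, 1577 and 2087 RPKM in controls, with 1 control inside the submerged range. Its adjusted p of 0.0394 (limma) was lost when the first or the second submerged library or the first or the second control was left out (0.0792, 0.142, 0.111 and 0.0984), and ran from 0.0121 to 0.46 over all settings. BnaA04G0221200ZS had 1717, 2215 and 944 RPKM submerged and 1817, 1738 and 2108 RPKM in controls (limma adjusted p = 0.43). It too was called lower only after quantile normalization (limma adjusted p = 0.016; up to 0.971 over all settings). BnaA04G0100900ZS had 1465, 1782 and 1023 RPKM submerged and 920, 1015 and 1230 RPKM in controls (limma adjusted p = 0.191). It passed the threshold without the third submerged library (limma adjusted p = 0.0477; 0.0276 to 0.548 over all settings), which was the lowest submerged library for all 5 of these genes.

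A few genes switched between a value and a listing at 0. Listed at 0 in all 3 controls and at 1 RPKM or more in all 3 submerged libraries were 8 genes, led by BnaA03G0394100ZS at 4.18, 4.58 and 4.25 RPKM and Brassica_napus_newGene_5913 at 2.28, 2.43 and 2.16 RPKM in submerged libraries. The reverse held for 6 genes. After BnaC05G0503500ZS the highest of these was BnaA02G0042200ZS, listed at 0 in all submerged libraries and at 2.03, 5.02 and 4.47 RPKM in controls. In the resistant pool BnaA02G0042200ZS was at 2.003, 0 and 2.565 RPKM submerged and at 2.618, 0 and 0 RPKM in controls, so it was at 0 in libraries of both groups. Apart from BnaC05G0503500ZS the switched genes were weak, with means of 0.610 to 2.17 RPKM over the 6 libraries. The number of members listed at 0 was 109, 130 and 108 in submerged libraries and 73, 87 and 96 in controls (2-sided exact permutation p = 0.1, n = 3 each).

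By the class in the identifier, genes of the A and C subgenomes responded at similar rates, and scaffold genes were seldom called. Members numbered 23739 on A chromosomes, 24894 on C chromosomes, 1360 on scaffolds and 2908 among new genes. On A chromosomes 12.04% of members rose and 30.2% fell, and on C chromosomes 14.0% rose and 29.3% fell. Of the new genes 9.94% rose and 27.1% fell, and of the scaffold genes 5.00% rose and 7.28% fell. The median log2 change was -0.20, -0.19, -0.20 and -0.08 in the order A, C, new and scaffold. With median ratio scaling the medians were 0.029, 0.035, 0.0039 and 0.128, and 18.64% of A and 22.15% of C genes rose while 16.88% and 16.35% fell. With quantile normalization the rises were 14.43% of A and 16.92% of C genes, and the falls 19.27% and 18.59%.

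On the deposited scale rises were slightly more frequent on C than on A chromosomes at every level, with the widest gap among abundant genes. Outside the blocks described next, 33.5% of C genes and 28.1% of A genes rose among those averaging 100 RPKM or more (n = 550 and 494). At 20 to 100 RPKM the shares were 24.3% of C genes and 23.2% of A genes, and at 2 to 5 RPKM 9.70% and 8.76%. For falls the order was the opposite at every level, with 21.1% of C genes and 22.5% of A genes at 100 RPKM or more and 32.6% and 35.99% at 2 to 5 RPKM. Counting only at least 2-fold rises, A genes led at 2 to 5 RPKM (4.23%, against 3.81% of C genes) and at 5 to 20 RPKM (6.94% and 6.61%). C genes led in the other bins. Genes are not replicates, so these differences were not tested.

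The share of RPKM held by each class was close in the groups except for the new genes. New genes held 4.505%, 4.01% and 4.49% of the summed RPKM in submerged libraries, against 5.08%, 4.81% and 4.87% in controls (2-sided exact permutation p = 0.1, n = 3 each, the smallest possible). C genes held 47.0%, 49.7% and 48.4% in submerged libraries and 47.3%, 48.0% and 47.6% in controls. A genes held 46.7%, 45.3% and 45.7% in submerged libraries and 46.1%, 45.97% and 46.2% in controls. Both overlapped between the groups (exact permutation p = 0.5 and 0.8, n = 3 each). Scaffold genes held 1.79%, 0.939% and 1.39% in submerged libraries, a wider range than the 1.56%, 1.21% and 1.42% of controls.

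The largest changes on scaffolds and among new genes had clear separation. Bnascaffold0025G0000500ZS had 15.2, 19.2 and 22.0 RPKM submerged and 1.78, 2.32 and 1.52 RPKM in controls (2.78 ± 0.19 log2, SE; limma adjusted p = 2.41e-06). Bnascaffold0026G0027200ZS had 9.95, 20.5 and 11.4 RPKM submerged and 105, 102 and 130.2 RPKM in controls. Brassica_napus_newGene_10087, the new gene with the largest rise, had 20.03, 19.2 and 30.0 RPKM submerged and 1.23, 1.501 and 0.681 RPKM in controls. The third submerged library was the highest for the new gene and for the rising scaffold gene.

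Chromosomes differed in how often their genes were called. C02 had the highest share of rises, 18.1% of 2299 members, followed by C06 with 15.3% and C09 with 15.2%. A07 and A10 had the highest shares of falls, 37.3% and 36.1%. A05 had the lowest shares of any chromosome in both directions, 9.22% rising and 19.6% falling of 2873 members. Of the first 500 members of C02, 23.6% rose and 12% fell, against 16.5% and 28.7% of the other 1799. At 2-fold the rises were 8.60% of the first 500 and 7.12% of the others, and the falls 3% and 9.28%. On A02 the first 500 members held 8% rises and 46% falls, against 15.7% and 26.9% of the other 1558.

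**Figure D3:**
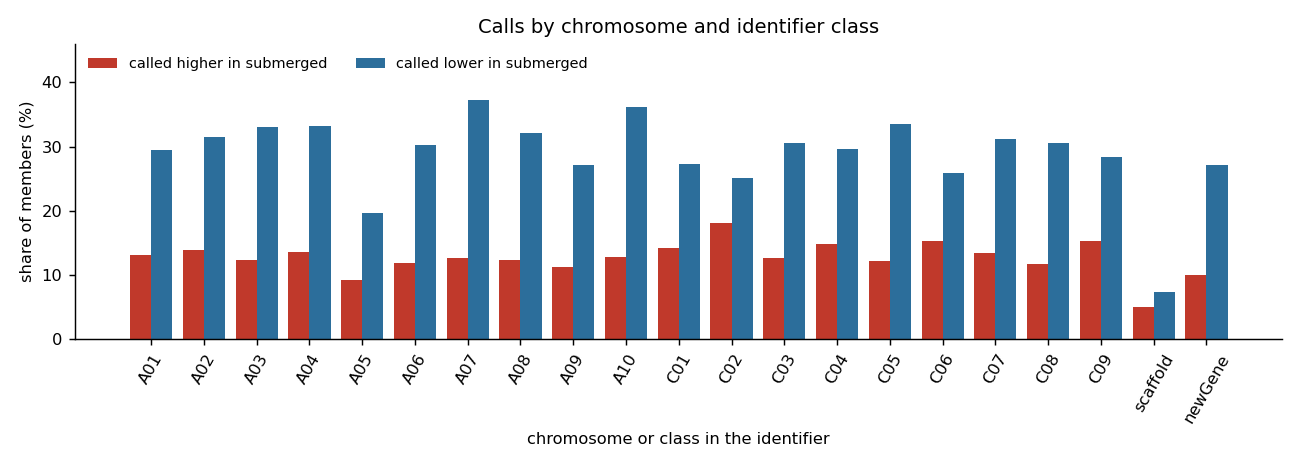
Share of the members called higher (red) or lower (blue) in submerged seedlings, for each chromosome named in the identifiers and for scaffold and new genes. A05 and the scaffold genes have the lowest shares of falls, 19.6% and 7.28%, and C02 has the highest share of rises, 18.1%.

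Part of A05 held very few calls. Along each chromosome, members were taken in windows of 50 in identifier order, and in 36 of 965 windows the replicates of a group varied together, with a pooled SD of the window mean over 0.3 log2 (median over all windows 0.056, highest 0.590). Of these, 17 were windows 20 to 36 of the 57 on A05, 12 were windows 30 to 41 of the 78 on A09, 4 were on A06, 2 on A01 and 1 on C08. The windows and the limit were chosen after the values were seen.

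In these blocks libraries differed more within the groups than the group medians did. Their 1800 members had a median of 18.4, 6.59 and 14.0 RPKM in submerged libraries and of 15.9, 10.4 and 12.7 RPKM in controls. In both groups the first library was highest and the second lowest. All other members outside the blocks and scaffolds had medians of 4.86, 4.95 and 5.15 RPKM in submerged libraries and 5.63, 5.78 and 5.90 RPKM in controls. The block on A05 ran from BnaA05G0186500ZS to BnaA05G0304100ZS and that on A09 from BnaA09G0279300ZS to BnaA09G0376800ZS.

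**Figure D4:**
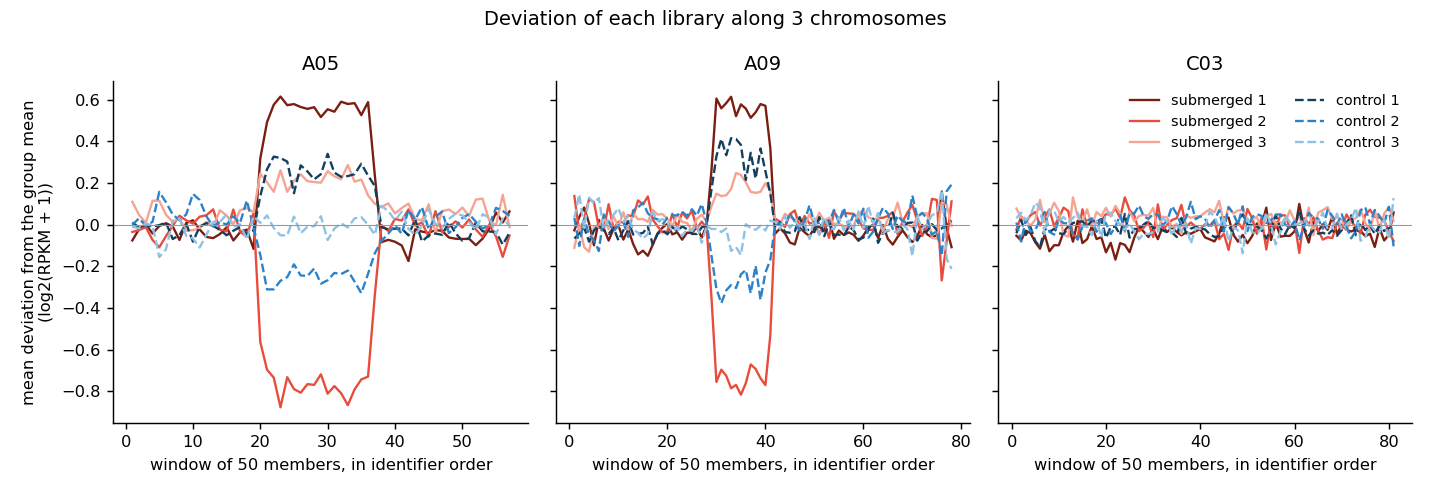
Mean deviation of each library from its group mean, in log2(RPKM + 1), along windows of 50 members on A05, A09 and C03; solid red lines are submerged and dashed blue lines control libraries. On A05 and A09 the first submerged library lies above and the second below the others over one contiguous block, and C03 shows none. In the block on A05 the first control also lies above and the second below the group mean, by less.

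Within the blocks only 7 genes rose and 18 fell, of 1800. Without the second submerged library 40 of them were called. Scaffold members shared the order of the libraries, with medians of 4.87, 2.25 and 3.71 RPKM in submerged libraries and of 4.63, 3.09 and 3.88 RPKM in controls, and of them 68 rose and 99 fell, with 146 called without the second submerged library. Outside the blocks, A05 had 13.1% rises and 27.7% falls, A09 13.2% and 31.7%, and A06 12.7% and 32.8%. All members outside the blocks and the scaffolds had 13.3% rises and 30.6% falls. The origin of this shared variation was not tested.

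Of the A05 identifiers between the ends of that block, 72.2% of 1177 were members, against 49.9% of the 93928 chromosome identifiers outside such blocks. Their median level was 11.1 RPKM over the 6 libraries, against 0.926 RPKM outside. On A09 61.5% of 976 identifiers were members, with a median of 4.69 RPKM. The block on A06 was less dense, with 35.3% of 566 identifiers and a median of 0.0965 RPKM.

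Genes that follow each other in the numbering shared their call more often than the overall rate, though mostly they did not share it. A called rise was followed by a called rise in 22.2% of 3591 cases, against 12.7% of all next genes, and by a called fall in 24.8%. A called fall was followed by a called fall in 37.5% of 8208 cases, against 29.1%, and by a called rise in 10.6%. Where a gene was called at least 2-fold higher and the next identifier was also a member, that next gene was called at least 2-fold higher in 14.0% of 1779 cases, against 6.15% of all such next genes. For at least 2-fold falls the share was 14.1% of 1814, against 6.53%. An opposite call of that size followed in 4.83% and 4.46% of cases. Neighbours can be near-identical tandem copies that share reads, which the identifiers do not show.

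Runs of successive identifiers that all changed by at least 2-fold the same way were mostly pairs, 183 higher and 209 lower. The longest had 5 genes, BnaC06G0399700ZS to BnaC06G0400100ZS, all higher in submerged seedlings. Its first gene had 5.51, 5.76 and 7.23 RPKM submerged and 2.26, 1.04 and 2.86 RPKM in controls. Its last and most abundant gene had 37.7, 25.3 and 36.6 RPKM submerged and 12.7, 10.98 and 13.9 RPKM in controls. The log2 changes of the 5 genes lay between 1.27 and 1.60, and the groups overlapped in none of them (limma adjusted p of 5.45e-05 to 0.0012).

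A run of 4 genes on A06, BnaA06G0008300ZS to BnaA06G0008600ZS, fell. BnaA06G0008500ZS had 4.17, 10.3 and 5.09 RPKM submerged and 85.0, 56.3 and 119 RPKM in controls. BnaA06G0008600ZS had 3.82, 14.2 and 4.78 RPKM submerged and 89.5, 55.6 and 120.2 RPKM in controls. These neighbours had similar levels except in the second submerged library, and log2 changes of -3.57 and -3.51, against -1.24 and -1.115 in the first pair of the run. A run of 4 genes on C03, BnaC03G0748200ZS to BnaC03G0748500ZS, rose by 1.19 to 2.47 log2. Its second gene was the most abundant, at 122.8, 117 and 110 RPKM submerged and 53.5, 64.3 and 31.3 RPKM in controls.

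The susceptible response was set beside that of the resistant pool, with which it shares no library. All 12 of the largest rises were also called higher in the resistant pool, where 11.9% of all tested genes were. Of the 12 largest falls, 10 were called lower there, against 26.7% of all tested genes, and the exceptions were BnaC05G0503500ZS and BnaA05G0450600ZS. The difference between the pools was not called for either of these (limma interaction, adjusted p = 0.517 and 0.304). BnaC01G0499200ZS changed by 6.54 log2 in the susceptible and 7.28 log2 in the resistant pool, and BnaC04G0163500ZS by 4.67 and 6.74 log2, with no called difference (limma interaction, adjusted p = 0.187 and 0.0806).

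A response that differed between the pools was called for 161 members by the limma interaction test, against 0.333% of all tested genes. The susceptible change was the higher one in 65 and the lower one in 96. Within the susceptible pool 73 of them rose, 49 fell and 39 were not called. With the replicate number as a block the count was 0 (6302 at an unadjusted p under 0.05, against 6808 without the block). It also changed with single libraries. It was 32, 100 and 90 without the first, the second and the third susceptible submerged library, and 13, 305 and 54 without the first, the second and the third susceptible control.

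Among the 8-fold changes and the switched genes, 5 members had such a called difference; they were picked after their values were seen. BnaC02G0049800ZS had 78.3, 122 and 84.2 RPKM in susceptible submerged seedlings, against 6.34, 6.42 and 4.81 RPKM in susceptible controls. In the resistant pool it had 56.6, 64.5 and 36.6 RPKM submerged and 73.97, 19.5 and 50.4 RPKM in controls. The susceptible change exceeded the resistant one by 3.50 log2 (limma interaction, adjusted p = 0.0338), and the susceptible controls lay below every other library. This gene is number 225 of the members on C02, within its first 500.

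BnaA03G0047600ZS had 57.8, 65.3 and 76.1 RPKM in susceptible submerged and 6.89, 5.06 and 4.29 RPKM in susceptible control libraries. In the resistant pool it had 30.9, 49.9 and 46.4 RPKM submerged and 22.2, 15.4 and 19.2 RPKM in controls, a difference of 2.296 log2 between the changes (limma interaction, adjusted p = 0.0188). BnaC08G0134400ZS had 25.4, 15.8 and 30.4 RPKM in susceptible submerged and 1.22, 1.21 and 1.73 RPKM in susceptible control libraries. The resistant pool had 10.5, 12.7 and 15.5 RPKM submerged and 4.45, 4.88 and 6.66 RPKM in controls (difference 2.21 log2; limma interaction, adjusted p = 0.0255). Both genes rose in both pools, and for both the susceptible controls lay below all resistant controls.

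BnaC02G0239400ZS was at 1.60, 3.24 and 1.69 RPKM in susceptible submerged libraries and listed at 0 in all susceptible controls. In the resistant pool it was at 0.169, 0 and 0.151 RPKM submerged and listed at 0 in all controls (difference 1.49 log2). It passed the expression minimum only through the susceptible submerged libraries, so no p is given. BnaC06G0177700ZS went the opposite way in the pools. It was listed at 0 in all susceptible submerged libraries and at 2.51, 2.33 and 3.37 RPKM in susceptible controls. In the resistant pool it was at 6.46, 7.33 and 6.31 RPKM submerged and at 0, 3.49 and 0 RPKM in controls (difference -4.11 log2). Only the susceptible controls brought it over the expression minimum, so no p is given.

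Over the other processing settings in which each could be fitted, the difference of BnaA03G0047600ZS was called in 11 of 12 and that of BnaC08G0134400ZS in 9 of 12. For BnaC02G0049800ZS it was called in 6 of 12 and for BnaC06G0177700ZS in 5 of 11. None of the 5 kept it with the replicate number as a block. The limma adjusted p was then 0.0544 for BnaC08G0134400ZS and 0.11 for both BnaA03G0047600ZS and BnaC02G0049800ZS. Without the first susceptible control the limma adjusted p was 0.0829 for BnaC08G0134400ZS and 0.0925 for BnaC02G0049800ZS.

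**Figure D5:**
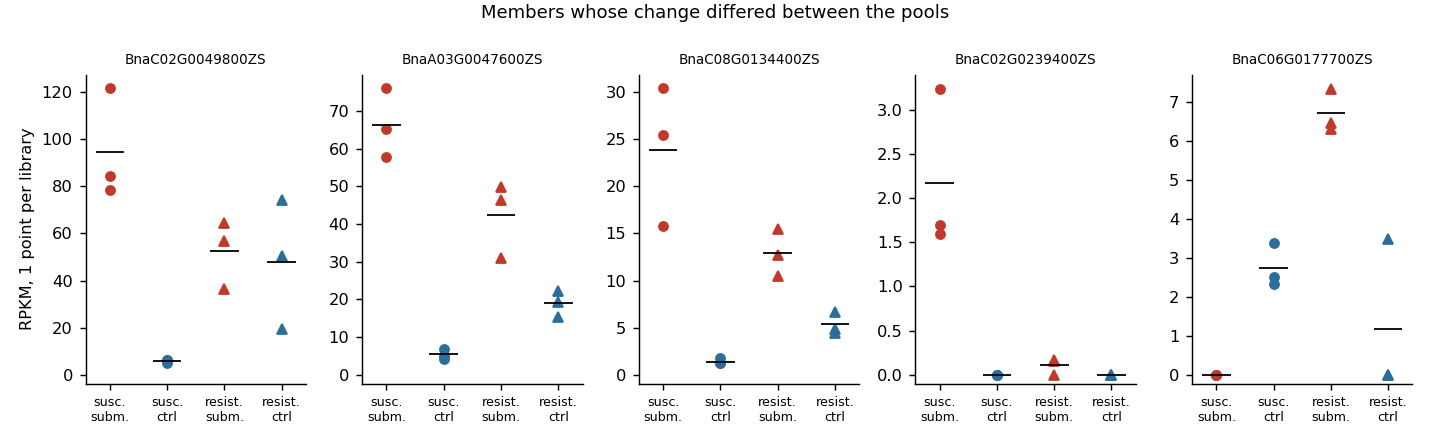
RPKM of 5 of the members with a called difference between pools, with 1 point per library and a line at the group mean; circles are the susceptible and triangles the resistant pool, red is submerged and blue control. For the first 3 genes the susceptible controls lie below all resistant controls, and the last gene moves in opposite directions in the pools.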

How the data were processed

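The authors deposited RPKM values of 12 libraries of polyadenylated RNA in 1 table. The submitters' processing notes name HISAT2 and StringTie; versions, roles, genome build and annotation: not given in the sources used here. No count model was run, since RPKM holds no counts.

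The 57391 genes at 1 RPKM or more in 3 of the 12 libraries were tested as log2(RPKM + 1) with limma 3.58.1 (R 4.3.3), its prior variance following the mean level. The 4 groups shared 1 fit (8 residual and 3.345 prior degrees of freedom). Values were not rescaled, p-values were 2-sided, and calls needed a Benjamini-Hochberg adjusted p under 0.05. On simulated data of 57391 genes this fit recovered 59% of 2-fold and 86% of 4-fold changes. Only 200 genes, with a mean log2(RPKM + 1) matching 5 RPKM or more, were given a change there. Changes of weaker genes, or of as many genes as were called here, were not simulated, so these rates need not hold for the real data. Measures per library used exact permutation tests.

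Named genes were members called without overlap between groups: the 12 largest rises and falls from a mean of 5 RPKM, the 5 largest of each from 100 RPKM and the largest in each identifier class. To these came the 5 most abundant members, the 3 longest runs of neighbours and, each way, the 2 most abundant members listed at 0 in a whole group. Members and lists were chosen with earlier results of these data known.

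Relative depth came from ratios of low values, which fitted within 0.02 log2 in 14 of 15 library pairs. Any pair of libraries differed in 70.6% of genes or more, so no library was a copy of another. Repeat libraries of the same RNA would differ too, so this does not show independent samples. Each library was counted as a sample of its own because the labels call the replicates biological. Alternatives changed the pseudocount, the filter, the scaling, the replicate block and the libraries in the fit.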

Additional observations from a re-analysis of the deposited data

Results flagged for a closer look

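In 5 of the 161 members called by the limma interaction test with Benjamini-Hochberg adjustment, picked after their values were seen, the changes in the susceptible and the resistant pool differed on the fit without a replicate block. None of the 5 was called with the replicate number as a block. The limma adjusted p was then 0.0544 for BnaC08G0134400ZS and 0.11 for both BnaA03G0047600ZS and BnaC02G0049800ZS. The difference in log2 change, susceptible minus resistant, was 3.50 for BnaC02G0049800ZS, 2.296 for BnaA03G0047600ZS, 2.21 for BnaC08G0134400ZS, 1.49 for BnaC02G0239400ZS and -4.11 for BnaC06G0177700ZS. BnaC06G0177700ZS was listed at 0 in 3 susceptible submerged and in 2 resistant control libraries, and BnaC02G0239400ZS in all controls of both pools and in 1 resistant submerged library. BnaC02G0239400ZS passed the expression minimum only through the susceptible submerged libraries, and BnaC06G0177700ZS only through the susceptible controls.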

How the results depend on the processing

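Of the 57 named genes that were called, 54 kept the call in every setting tried, and no called gene was called in the opposite direction under any of them. Members called at least 2-fold lower numbered 6483 with a pseudocount of 0.1, 1920 with a filter of a mean of 5 RPKM (fewer genes were tested) and 2194 with median ratio scaling. Members called lower numbered 7252 with the stricter filter, 9749 after quantile normalization and 8632 with median ratio scaling, which gave 10484 called higher. From the weakest to the most abundant bin the median log2 changes were -0.035, -0.034, -0.053, -0.073 and -0.027 after quantile normalization and -0.121, -0.033, 0.0826, 0.242 and 0.373 with median ratio scaling. Without the genes that reached 1 RPKM in 1 group only, a choice made after seeing the data, the median under 2 RPKM was -0.197. Leaving out single libraries moved the median at 20 to 100 RPKM between -0.0903 and 0.0458. The class medians of A, C and new genes were -0.067, -0.043 and -0.043 after quantile normalization and 0.0288, 0.0355 and 0.00388 with median ratio scaling. Single libraries moved that of A genes between -0.239 and -0.174 and that of new genes between -0.265 and -0.156. With median ratio scaling the submerged libraries had 1540.33 more members at 10 RPKM and a median RPKM higher by 0.239. Without single libraries the difference in share of RPKM, in percentage points, ran from -0.152 to 0.382 for the 10 most abundant genes, from -0.571 to 0.133 for A genes and from -0.231 to 0.194 for scaffold genes.

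The change of BnaC04G0532900ZS was 0.10 log2 with median ratio scaling and between -0.43 and 0.034 without single libraries, and that of BnaA04G0221200ZS between -0.56 and 0.052. Both were called lower after quantile normalization (log2 changes of -0.46 and -0.60, limma adjusted p = 0.012 and 0.016) and in no other setting. Members with a called difference between pools numbered 103 with the stricter filter and 13 to 305 without single libraries. With the replicate number as a block limma called 0, with 6302 at an unadjusted p under 0.05, against 161 called and 6808 without the block. The block left 6252 members called higher and 13802 called lower. Same-numbered submerged and control libraries deviated together with correlations of 0.41, 0.15 and -0.03, not all above 0.1. Not every library correlated best with its own number. In the 1800 members of the blocks, log2 deviations from the group mean were 0.557, -0.746 and 0.201 in submerged libraries. In controls of the same numbers they were 0.2835, -0.253 and -0.013. The main fit treats the numbers as sharing only a name, and whether they share more was not tested. Depth is known only relative to the deepest library, so counting error of weak genes was not assessed. The cause was not tested for any of these shifts.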
